A study of Mus musculus with 4 samples.

Results

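Malat1, Neat1 and Miat are long noncoding RNAs that stay in the nucleus. Gas5, Snhg1, Snhg11 and Zfas1 are host transcripts whose introns hold small nucleolar RNAs (snoRNAs), and Dancr is a short noncoding RNA that also has a snoRNA inside its gene. These 8 genes, 3 nuclear-retained and 5 hosts with Dancr, were taken by symbol from the 49997 genes counted in each library. All 8 were among the 19837 genes that passed the filter on low counts. The members and the split into classes were chosen by their log2 fold changes between CCCP and untreated libraries, which were already known, so their values in that comparison are given as a description and without a test.

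The libraries came from C57BL/6J mouse embryos. The aorta-gonad-mesonephros region (AGM), the place in the embryo where haematopoietic stem cells arise, was dissected and kept on membrane filters as an explant for 48 hours. The untreated group (n = 2) was compared with explants that received 5 µM CCCP for 48 hours (n = 2). CCCP carries protons across the inner membrane of mitochondria and so uncouples respiration from ATP synthesis. All 4 libraries shared the same culture medium with hydrocortisone and no genetic change is given for any of them. The growth protocol names the stages E10.5 and E11.5, and the series design names E10.5 alone. The cell type is labelled as embryonic stem cells of the blood, the design speaks of c-kit+ cells, and the extraction protocol speaks of explants. Nothing in the labels says that the replicates came from separate pools of embryos, so the spread between them may be technical.

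Markers were measured to see what the libraries held. Summed levels of 12 blood progenitor markers were 193 to 248 CPM (counts scaled by library size), and those of 8 mesenchymal markers were 3081 to 5402 CPM. The libraries therefore carried much RNA of other cell types than the labelled one. Neural markers, 15 in number, summed to 1631 to 1925 CPM. Markers of the hepatic lineage moved with the treatment: 11 of 11 were lower in both CCCP libraries, and their summed level was 1562 and 907 CPM untreated against 6.11 and 72.3 CPM with CCCP. Erythroid markers had a median log2 fold change of 0.33, with 3 of 9 higher, none lower and 6 overlapping, and sums of 2293 and 2903 CPM untreated against 2572 and 4328 CPM with CCCP. Of 8 tested skeletal muscle markers, 4 were higher without overlap, none lower and 4 overlapped. Among them Acta1, skeletal muscle actin, was at 37.5 and 34.8 CPM untreated and at 68.2 and 71.3 CPM with CCCP (edgeR adjusted p = 0.144, DESeq2 adjusted p = 3.7e-06). The part of these shifts in the results on the noncoding RNAs was not tested. In bulk RNA, fewer cells of a type and less RNA per cell cannot be told apart. Total counts per library were 37360968 to 48827826, and 3 counts, taken as the floor, correspond to 0.0614 to 0.0803 CPM.

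Nuclear-retained transcripts of this kind escape export and gather in subnuclear bodies. Malat1 is abundant in nuclear speckles, where splicing factors are stored, and Neat1 is the scaffold on which paraspeckles assemble. Both Malat1 and the long form of Neat1 end in a triple-helical structure in place of an ordinary poly(A) tail, so that their recovery by poly(A) selection differs from that of a messenger RNA. Hosts of snoRNAs work differently: the intron is the product, the spliced exons carry no long reading frame, are exported, meet the ribosome and are degraded by nonsense-mediated decay (NMD). Many hosts, Gas5 among them, begin with a 5′ terminal oligopyrimidine (TOP) run, the feature through which growth signals control translation of ribosomal protein messages. The snoRNAs themselves guide the methylation (box C/D class) or pseudouridylation (box H/ACA class) of ribosomal RNA.

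The starts of these genes are shown because the start is where a TOP host would differ from a nuclear RNA. Each line gives 20 bases before and 30 bases from the annotated start, 5′ to 3′ on the gene's strand, from RefSeq on GRCm38.p6, with capitals for an unbroken run of pyrimidines that opens with C at the start.
Malat1, chr19:5802643-5802692, minus strand: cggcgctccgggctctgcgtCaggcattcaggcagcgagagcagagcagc
Miat, chr5:112228919-112228968, minus strand: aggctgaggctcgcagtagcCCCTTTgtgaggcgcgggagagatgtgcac
Gas5, first annotated start, chr1:161034581-161034630, plus strand: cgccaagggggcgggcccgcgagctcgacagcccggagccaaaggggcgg
Gas5, other annotated start, chr1:161035146-161035195, plus strand: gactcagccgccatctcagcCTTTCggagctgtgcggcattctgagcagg
Snhg1, chr19:8723467-8723516, plus strand: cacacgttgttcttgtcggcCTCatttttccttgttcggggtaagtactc
Snhg11, chr2:158375693-158375742, plus strand: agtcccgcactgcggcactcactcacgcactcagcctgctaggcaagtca
Zfas1, chr2:167062914-167062963, plus strand: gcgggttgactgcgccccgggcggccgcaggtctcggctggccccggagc
Dancr, chr5:74093040-74093089, plus strand: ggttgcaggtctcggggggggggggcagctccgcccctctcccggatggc
A TOP-like start was searched as C at the annotated base followed by at least 4 pyrimidines, on the strand of the gene only. Of the 7 members found in the promoter table (Neat1 was not matched), 2 had it at a listed start. They were Miat, with a run of 6, and the other start of Gas5, with a run of 5. The Snhg1 run stopped at 3 bases. Among all 27025 genes of the table, 3.01% had such a start, against 5 of 14 matched genes of a list of TOP translation genes and 3 of 15 other snoRNA hosts. A match describes these letters only, and the class labels did not sort by it, since one match lay in each class. Tested genes with the motif, 449 in all, had a median log2 fold change of 0.04 and the 13647 without it a median of -0.01.

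Malat1 (mm10, chr19:5795690-5802672, minus strand, 6983 exon bases) had the highest CPM of the 8, before any division by length. Its level was 1502 CPM in untreated replicate 1, 624 CPM in untreated replicate 2, 924 CPM in CCCP replicate 1 and 379 CPM in CCCP replicate 2. The groups overlapped, and within each group replicate 1 was far above replicate 2, by 2.41 times in the untreated and by 2.44 times in the CCCP group. The group means were 1063 ± 621 CPM (SD, n = 2) and 651 ± 385 CPM (SD, n = 2), and the fitted log2 fold change, CCCP over untreated, was -0.71. With libraries left out it was 0.07 without untreated replicate 1, -0.19 without CCCP replicate 2, -1.17 without untreated replicate 2, and with CCCP replicate 1 left out it was -1.48. The annotation places Mascrna, the small RNA cut from the Malat1 end, over 58 of its exon bases, 0.83% of the length, where reads that touch both genes were not counted.

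Neat1 (chr19:5824708-5845480, minus strand, 20773 exon bases) lies next to Malat1 on the same strand. It was measured at 23.1 and 8.20 CPM in untreated replicates 1 and 2 and at 8.36 and 5.10 CPM in CCCP replicates 1 and 2. Untreated replicate 1 stood apart from the other libraries, and CCCP replicate 1 was within the untreated range. The means were 15.6 ± 10.52 CPM (SD, n = 2) and 6.73 ± 2.31 CPM (SD, n = 2), with a log2 fold change of -1.22. Without untreated replicate 1 the log2 fold change was -0.27. The counted length covers the long isoform, the one that builds paraspeckles, and the counts do not separate it from the short one.

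Miat (chr5:112213228-112228948, minus strand, 8760 exon bases), a nuclear RNA known from neurons and retina, was the nuclear member whose groups did not overlap. Miat stood at 595 and 446 CPM in untreated explants and at 300 and 256 CPM in treated ones. Both CCCP libraries were thus below both untreated ones. The means were 520 ± 105 CPM (SD, n = 2) and 278 ± 30.8 CPM (SD, n = 2), and the log2 fold change was -0.90, with values of -1.06 to -0.67 when any library was left out.

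Gas5 (chr1:161034601-161038539, plus strand, 620 exon bases), named for its accumulation in growth-arrested cells, hosts a series of box C/D snoRNAs. Its spliced exons stood at 159 and 173 CPM untreated and at 177 and 150 CPM with CCCP. The CCCP libraries bracketed the untreated ones. Means of 166 ± 10.1 CPM (SD, n = 2) and 164 ± 18.7 CPM (SD, n = 2) gave a log2 fold change of -0.02.

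Snhg1 (chr19:8723487-8726326, plus strand, 476 exon bases), host of the U22 snoRNA (Snord22) and its neighbours, was at 67.0 and 95.0 CPM in untreated libraries and at 70.5 and 80.2 CPM under CCCP. Both treated values lay inside the untreated range. The log2 fold change was -0.10, from 81.0 ± 19.8 CPM (SD, n = 2) to 75.4 ± 6.84 CPM (SD, n = 2).

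Zfas1 (chr2:167062934-167065862, plus strand, 738 exon bases), which hosts snoRNAs of the Snord12 family, was at 55.3 and 71.8 CPM untreated and at 53.6 and 76.7 CPM with CCCP. Replicate 2 was above replicate 1 in each group, and the groups overlapped. The log2 fold change was 0.04, from 63.5 ± 11.7 CPM (SD, n = 2) to 65.1 ± 16.3 CPM (SD, n = 2). It starts head to head with Znfx1 on the opposite strand, and 82 exon bases (11.1%) are shared with that gene.

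Dancr (chr5:74093060-74094337, plus strand, 1278 exon bases), first described as an RNA that holds back differentiation, was low: 5.81 and 8.02 CPM untreated and 4.88 and 7.96 CPM with CCCP. These are 237 to 300 counts per library, far above the floor. The log2 fold change was -0.11, from 6.91 ± 1.56 CPM (SD, n = 2) to 6.42 ± 2.18 CPM (SD, n = 2). For these 4 short RNAs the sign of the change depended on the libraries compared. With each library left out in turn it ranged from -0.13 to 0.10 for Gas5, -0.33 to 0.20 for Snhg1, -0.24 to 0.28 for Zfas1 and -0.49 to 0.21 for Dancr.

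Snhg11 (chr2:158375713-158386474, plus strand, 6118 exon bases), a host known for its expression in neurons, differed from the other host members. Its level was 81.4 and 46.3 CPM without treatment and 32.9 and 16.6 CPM with CCCP. The groups did not overlap, and replicate 1 was above replicate 2 in both. The means were 63.8 ± 24.8 CPM (SD, n = 2) and 24.8 ± 11.48 CPM (SD, n = 2). The log2 fold change was -1.36, or 2.57-fold lower, the furthest from 0 of the 8. Without untreated replicate 1 it was -0.89. Neural markers, read beside it because Snhg11 and Miat are known from neurons, numbered 15 with a median log2 fold change of -0.05, 3 of them higher, 2 lower and 10 overlapping.

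Over the members, 2 of 8 were lower in both CCCP libraries without overlap (Miat and Snhg11), none was higher and 6 overlapped. Of all 19837 genes tested, 24.8% were lower without overlap, 24% higher and 48.8% either, so a count of 2 of 8 is at the level of the background. With edgeR's quasi-likelihood test, 0 genes (0%) had an adjusted p-value under 0.05. At an unadjusted p under 0.05 there were 2899 (14.6%), and DESeq2 called 594 of 17914 (3.32%).

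**Figure D1:**
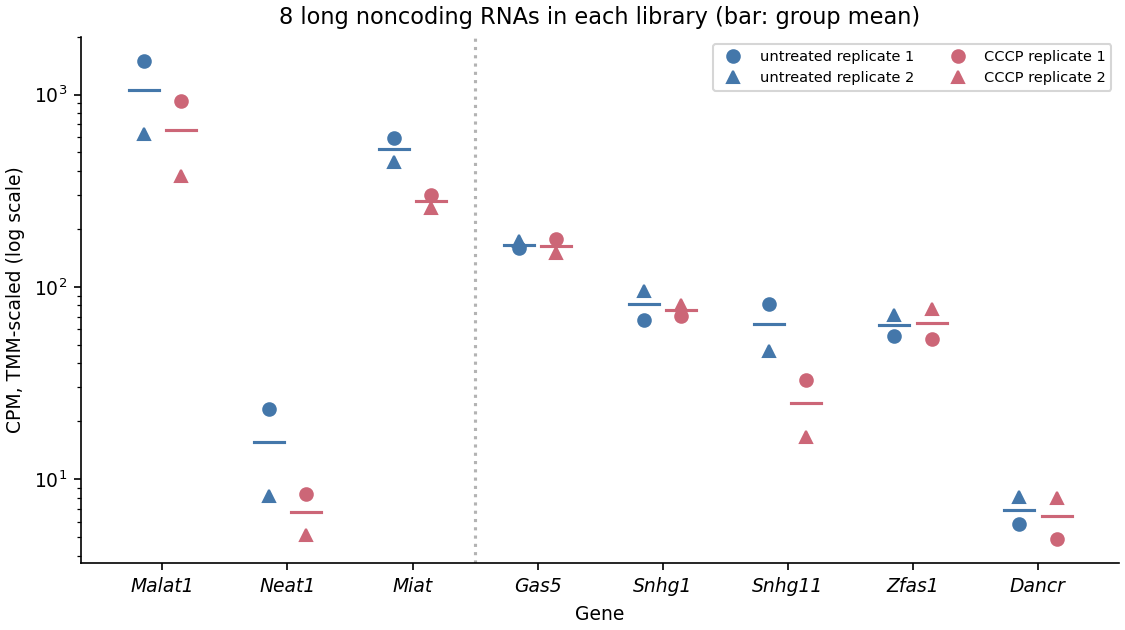
Level of each of the 8 noncoding RNAs in each library, in CPM on a log axis. Points are single libraries by group and replicate, and bars mark group means. Miat and Snhg11 are the members whose CCCP libraries lie below both untreated ones, while Malat1 shows a gap between replicates 1 and 2 that is repeated in both groups.

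Set against the length of each gene, the 3 nuclear RNAs and Snhg11 were also the 4 longest members, at 6118 to 20773 exon bases. The 4 others had 476 to 1278 bases. In these libraries the change under CCCP sorted with length over all genes: the median log2 fold change was 0.22 in the shortest 1984 genes and -0.35 in the bin of the longest, when the tested genes were cut into 10 bins of length, and Spearman's rho across the 19837 genes, which are not independent replicates, was -0.35. Libraries of the same group also differed by length. The median log2 CPM of untreated replicate 1 minus that of untreated replicate 2 was -0.22 in the bin of the shortest genes and 0.24 in that of the longest, and for the CCCP replicates it was -0.15 and 0.03. The trend over the treatment was thus not much larger than that between the untreated replicates. When the length trend was removed, the log2 fold changes were -0.53 for Malat1, -0.75 for Neat1, -0.67 for Miat and -1.24 for Snhg11. The short members then stood at -0.24 (Gas5), -0.32 (Snhg1), -0.18 (Zfas1) and -0.28 (Dancr). All 8 were thus below the trend for their length. Removal of a GC trend instead gave the short members other values, 0.20 for Gas5, 0.20 for Snhg1, 0.06 for Zfas1 and -0.08 for Dancr. The sign for Gas5, Snhg1 and Zfas1 thus depended on which trend was removed. The 4 long members then stood at -0.49 (Malat1), -1.17 (Neat1), -1.04 (Miat) and -1.24 (Snhg11). Class and length cannot be told apart fully within 8 genes, and Snhg11 is the member that is a long host.

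**Figure D2:**
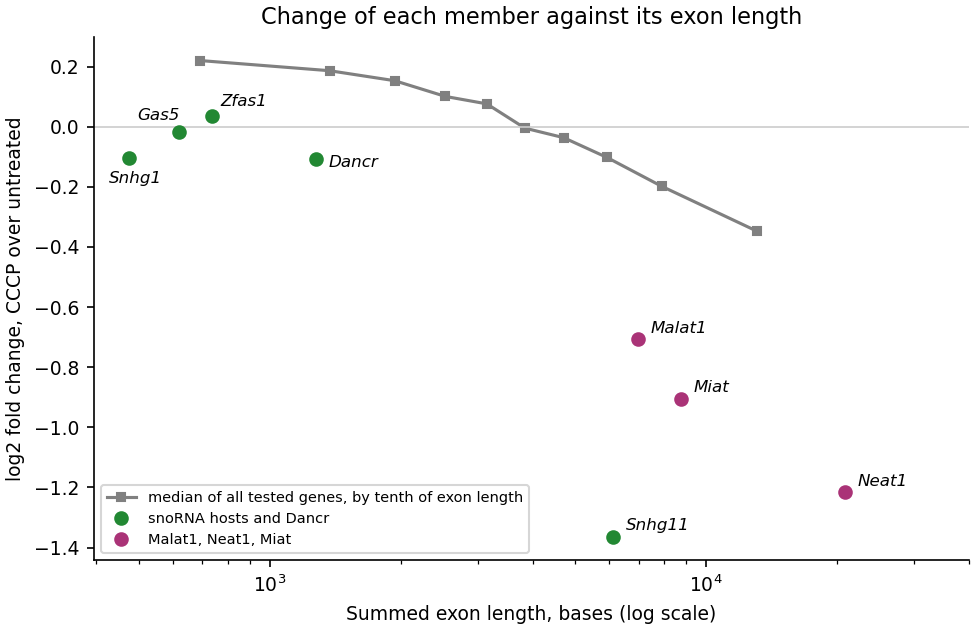
Log2 fold change, CCCP over untreated, of each member against its summed exon length in bases (log axis). The grey line joins the medians of all tested genes in 10 bins of exon length, each placed at its median length. The 4 members of 6118 bases or more lie at -0.71 and below, the 4 short ones near 0, and all 8 lie below the line.

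The balance of the classes was read in each library as the mean log2 CPM of Malat1, Neat1 and Miat minus that of the 5 others. This balance was 2.49 and 1.3 in untreated explants against 1.71 and 0.933 in treated ones. The groups overlapped, since CCCP replicate 1 lay above untreated replicate 2. The mean went from 1.89 ± 0.839 (SD, n = 2) to 1.32 ± 0.550 (SD, n = 2), and the difference of -0.57 stood against a pooled SD of 0.709, which made it smaller than the spread between replicates. The nuclear mean itself differed by -0.89 and the host mean by -0.32. Without Snhg11 the host mean differed by -0.05 and the balance by -0.84. Removing the length trend left a difference of -0.17. Leaving out libraries gave 0.02 without untreated replicate 1, -0.18 without CCCP replicate 2, -0.96 without CCCP replicate 1 and -1.17 without untreated replicate 2.

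Compared per kilobase of exon, the order of the levels in untreated explants was Gas5 at 267 ± 16.3 CPM per kilobase (SD, n = 2), Snhg1 at 170 ± 41.6, Malat1 at 152 ± 88.9, Zfas1 at 86.1 ± 15.8, Miat at 59.4 ± 12.01, Snhg11 at 10.4 ± 4.06, Dancr at 5.41 ± 1.22 and Neat1 at 0.753 ± 0.506. Malat1 overlapped both of its neighbours in that order, Snhg1 and Zfas1, and the other neighbours did not overlap. Under CCCP the order was Gas5 at 264, Snhg1 at 158, Malat1 at 93.3, Zfas1 at 88.3, Miat at 31.7, Dancr at 5.02, Snhg11 at 4.05 and Neat1 at 0.324 CPM per kilobase. Malat1 overlapped Zfas1, and Dancr and Snhg11, which changed places, overlapped each other. The Neat1 value is divided by the length of its long isoform.

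The introns of the hosts carried a second readout, since the snoRNAs inside them are counted as genes of their own. Gas5 has 5 snoRNA genes that lie clear of any exon, shown here because their counts moved away from those of the Gas5 exons. The sequences are from GENCODE vM21 on GRCm38, plus strand, with capitals for box C (TGATGA, within the first 20 bases) and box D (CTGA, within the last 20).
LOC115487643, chr1:161035394-161035473: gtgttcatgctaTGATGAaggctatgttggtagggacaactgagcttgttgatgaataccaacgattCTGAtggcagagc
LOC115487678, chr1:161035850-161035911: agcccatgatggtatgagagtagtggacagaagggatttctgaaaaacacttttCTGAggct
LOC115487638, chr1:161036057-161036139: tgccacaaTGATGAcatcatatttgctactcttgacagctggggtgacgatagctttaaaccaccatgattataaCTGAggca
LOC115487644, chr1:161036682-161036741: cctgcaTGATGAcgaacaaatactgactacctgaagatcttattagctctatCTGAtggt
LOC115487677 (Snord78), chr1:161036984-161037049: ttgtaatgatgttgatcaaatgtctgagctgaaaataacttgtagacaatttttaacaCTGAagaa
Both boxes were found in 3 of the 5 and box D in all of them. Of 1507 snoRNA transcripts in the GENCODE set, 20.5% had both boxes by the same search. The search was made on the strand of the snoRNA and asked for these exact letters. That set was not limited to the box C/D class, so its share is not one for box C/D snoRNAs alone. Absence of the exact box C letters in the other two says only that.

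Read counts of these 5 Gas5 snoRNA genes together were 1000 and 797 without treatment and 509 and 500 with CCCP. On the scale of library size this was 19.96 and 21.3 CPM against 10.48 and 13.8 CPM, so the CCCP libraries lay below both untreated ones. The means were 20.6 ± 0.944 CPM (SD, n = 2) and 12.1 ± 2.33 CPM (SD, n = 2), 1.70-fold lower. The log2 fold change was -0.77 and ranged from -0.98 to -0.58 with a library left out. Per 100 reads in Gas5 exons there were 12.6 and 12.3 snoRNA reads in untreated and 5.93 and 9.15 in CCCP libraries. Each of the 5 was lower without overlap, with log2 fold changes of -1.24 (LOC115487678) to -0.55 (LOC115487677). Snora26, which lies inside the Dancr exon, is listed at 0, since reads there touch more than 1 gene and were dropped by the counting.

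Snhg1 had 8 such intronic snoRNA genes, with 779 and 606 reads in untreated and 519 and 406 in CCCP libraries. Their summed level was 15.6 and 16.2 CPM against 10.7 and 11.2 CPM. The groups did not overlap, at a log2 fold change of -0.54 (-0.57 to -0.51 with a library left out). Reads per 100 Snhg1 exon reads were 23.2 and 17.04 untreated against 15.1 and 13.9 with CCCP. Of the 8 genes, 6 were lower without overlap. LOC115489078 and LOC115489082 overlapped. Snord22 itself had 214 and 232 reads untreated and 195 and 127 with CCCP.

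In Zfas1 the 3 snoRNA genes summed to 3.19 and 4.06 CPM untreated and 2.35 and 3.39 CPM with CCCP. These groups overlapped, and the log2 fold change was -0.34, from -0.63 to -0.10 with a library left out. Per 100 Zfas1 exon reads there were 5.78 and 5.66 snoRNA reads against 4.38 and 4.42. The gene with the lowest value was LOC115486178, at 48 and 28 reads untreated and 10 and 20 with CCCP. The snoRNA genes of Snhg11 had 0 to 4 reads per library and were too low to compare.

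Over the hosts, 12 of 16 tested intronic snoRNA genes (75%) were lower without overlap, 4 overlapped and none was higher, with a median log2 fold change of -0.60. Among all 132 intronic snoRNA genes tested, 53 were lower (40.2%), 14 higher and 65 overlapped, at a median of -0.33. edgeR called none of the 132 (smallest adjusted p = 0.204), with 10 lower and none higher at an unadjusted p under 0.05, and DESeq2 called none. At 57 hosts outside the members the summed snoRNA reads had the same median of -0.33, 19 of them lower, 8 higher and 30 overlapping. Whether the snoRNA genes of the members differ from the others was not tested. The length bin of the shortest genes, which holds these snoRNA rows, had a median of 0.22. Whether length or GC plays a part in the snoRNA counts was not tested. Poly(A) selection recovers snoRNAs poorly, and these reads may come from the snoRNA or from unspliced host intron. The counts do not separate the sources.

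**Figure D3:**
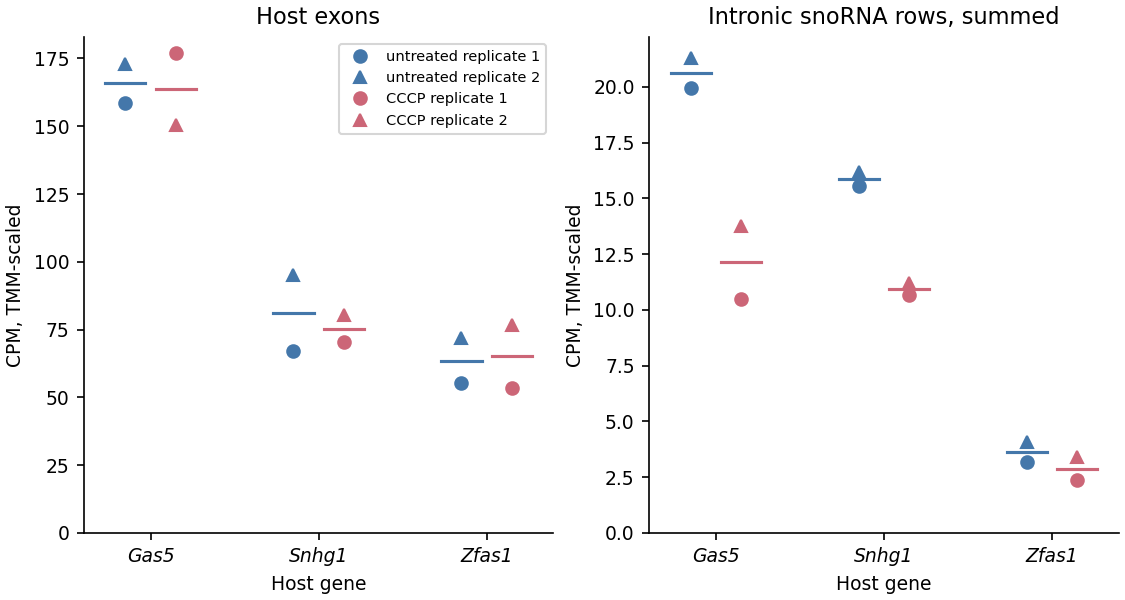
Exon reads of each host and reads of the snoRNA genes in its introns, in CPM per library, for Gas5, Snhg1 and Zfas1. Points are single libraries by group and replicate, and bars mark group means. Exon levels of the groups overlap in all 3 hosts, while summed snoRNA levels of Gas5 and Snhg1 are lower in both CCCP libraries, and those of Zfas1 overlap.

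Of 16 other snoRNA hosts tested, 2 were higher without overlap, 4 lower and 10 overlapped, and the median log2 fold change was 0.06. The median moved between -0.05 (without CCCP replicate 2) and 0.13 (without CCCP replicate 1) and was -0.18 with the length trend removed. edgeR called none (1 higher and 1 lower at an unadjusted p under 0.05), and DESeq2 called Snhg14 as lower. Snhg14 was lower without overlap, at a log2 fold change of -0.84 (edgeR adjusted p = 0.219). The most abundant was 2410006H16Rik, at 105 and 132 CPM untreated and 132 and 168 CPM with CCCP. Its log2 fold change was 0.34 (edgeR adjusted p = 0.415), or 0.12 with the length trend removed. Snhg18 was at 8.52 and 9.25 CPM against 13.1 and 12.4 CPM, a log2 fold change of 0.52 (edgeR adjusted p = 0.307). Snhg8 also did not overlap, with 0.25 (edgeR adjusted p = 0.465) that was 0.03 with the length trend removed, and Snhg17 had -0.24 on the lower side (edgeR adjusted p = 0.468). The 4 others with a mean of at least 10 CPM overlapped, at -0.08 (Snhg5), -0.06 (Snhg16), 0.07 (Snhg12) and 0.09 (1110038B12Rik). The range over the 8 hosts with a mean of at least 10 CPM was -0.24 to 0.52, and Gas5, Snhg1 and Zfas1 lay within it. Over all 16 the range was -0.84 (Snhg14) to 0.90 (Snhg9).

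**Figure D4:**
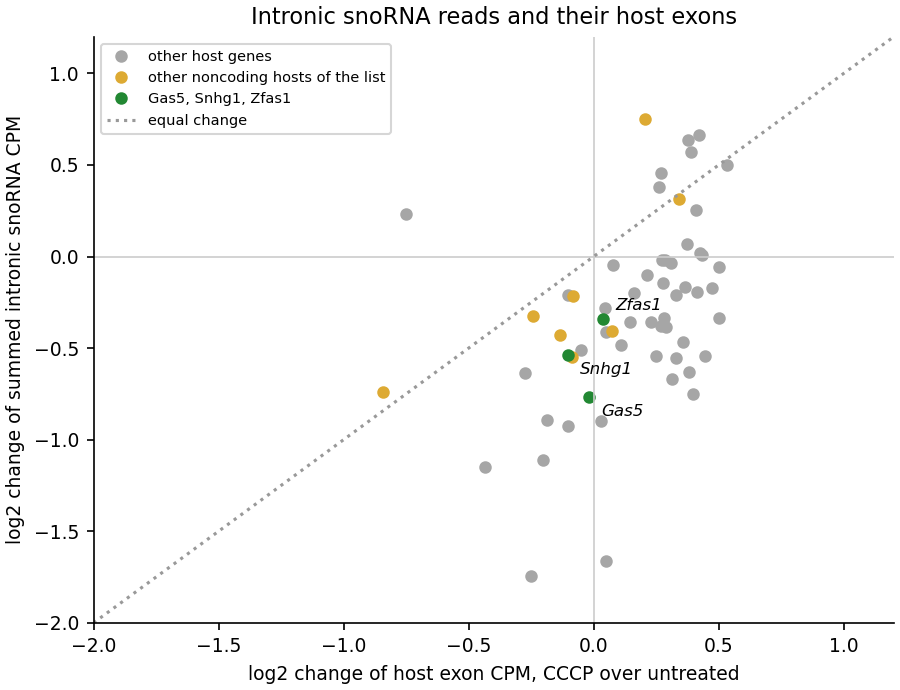
For each snoRNA host with tested intronic snoRNA genes, the log2 fold change of its exons (x axis) and of the summed snoRNA reads in its introns (y axis), CCCP over untreated. Green named points are Gas5, Snhg1 and Zfas1, yellow points other noncoding hosts, grey points the rest, and the dotted line marks equal change. Gas5, Snhg1 and Zfas1 sit near 0 on the x axis and at -0.77, -0.54 and -0.34 on the y axis.

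Other RNAs listed as nuclear were read from 16 tested genes, which include 1 protein-coding gene, Nktr. Where in the cell each of these RNAs lies, Oip5os1 among them, was not measured here. All 16 had log2 fold changes below 0, with a median of -0.58, and 13 were lower without overlap, against 24.8% of all genes. The list was put together with such values known, so its direction is no independent evidence. edgeR called none of them (smallest adjusted p = 0.204, 9 lower at an unadjusted p under 0.05), and DESeq2 called 5 as lower, Meg3, Firre, Ftx, Oip5os1 and Nktr. Left-out libraries moved the median between -0.62 and -0.44, removal of the length trend gave -0.51, and removal of the GC trend gave -0.37. At least 14 of the 16 remained below 0 in each of these comparisons with a library left out.

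Meg3, an imprinted RNA of the Dlk1-Dio3 domain, was at 868 and 483 CPM untreated and at 404 and 277 CPM with CCCP. Its log2 fold change was -0.99 (edgeR adjusted p = 0.272, DESeq2 adjusted p = 0.028), but -0.52 with the length trend removed and -1.32 to -0.49 with a library left out. Rian, from the same domain, was at 554 and 440 CPM against 368 and 321 CPM (log2 fold change -0.53, edgeR adjusted p = 0.270), and Mirg, the third of them, overlapped at -0.12. Firre, an X-linked RNA that organises chromatin in the nucleus, was at 96.7 and 77.8 CPM untreated and 58.9 and 53.5 CPM with CCCP (log2 fold change -0.63, edgeR adjusted p = 0.204). Oip5os1, also named Cyrano, was at 52.3 and 56.3 CPM against 28.3 and 37.9 CPM, a log2 fold change of -0.72 (edgeR adjusted p = 0.206). It has 1551 exon bases and Mirg has 1300, both short for the list. With the length trend removed Oip5os1 was at -0.87 and Mirg at -0.30. Ftx, from the X-inactivation centre, had -0.79 (edgeR adjusted p = 0.211), Nktr -0.60 and Tug1 -0.34, each without overlap. With the length trend removed Nktr was at -0.21 and Tug1 at -0.19. Kcnq1ot1, an imprinted antisense RNA, overlapped at -0.93, with -1.47 to -0.25 when a library was left out and -0.25 with the length trend removed, and Peg13 overlapped at -0.04.

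Proteins of the bodies in which these RNAs sit were described beside them. Of 20 paraspeckle proteins, 3 were higher without overlap, 8 lower and 9 overlapped, with a median of -0.08, which was 0.00 with the length trend removed and 0.01 with the GC trend removed. edgeR called none (none higher and 1 lower at an unadjusted p under 0.05), and DESeq2 called Cpsf6 as lower. Hnrnpk was at 802 and 982 CPM untreated and 887 and 938 CPM with CCCP. Sfpq, a core paraspeckle protein, was at 922 and 884 CPM against 735 and 744 CPM, a log2 fold change of -0.29 (edgeR adjusted p = 0.377) that was 0.02 with the length trend removed. Among 25 speckle and splicing genes, 15 were lower without overlap, 3 higher and 7 overlapped, at a median of -0.20, or -0.09 with either the length or the GC trend removed. edgeR called none (8 lower and none higher at an unadjusted p under 0.05), and DESeq2 called the kinases Clk1 and Clk4, Pnn and Luc7l3 as lower. The speckle scaffold Srrm2 was at 1066 and 932 CPM untreated and 775 and 773 CPM with CCCP (log2 fold change -0.37, edgeR adjusted p = 0.329). Son, the other scaffold, had -0.28 (edgeR adjusted p = 0.384), and Srsf1 overlapped at -0.12. With the length trend removed Srrm2 was at -0.06, Son at -0.04 and Srsf1 at 0.23.

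On the side of the hosts, 19 snoRNP proteins, which bind and mature snoRNAs, had a median log2 fold change of 0.19. Of these 8 were higher without overlap, 1 lower and 10 overlapped. Neither edgeR nor DESeq2 called any, and 2 were higher at an unadjusted p under 0.05 in edgeR. The methyltransferase Fbl was at 140 and 173 CPM untreated and 191 and 209 CPM with CCCP, a log2 fold change of 0.35 (edgeR adjusted p = 0.343). Its partners Nop58 and Nop56 overlapped, at -0.18 and 0.05. With the length trend removed Fbl was at 0.20. Leaving out untreated replicate 2 gave a snoRNP median of 0.38, and leaving out untreated replicate 1 gave 0.06.

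Genes with TOP messages for translation, 21 in number, had a median of 0.34, or 0.22 with the length trend removed. Of these 8 were higher without overlap, none lower and 13 overlapped, beside 24% higher over all genes. edgeR called none (4 higher and none lower at an unadjusted p under 0.05) and DESeq2 none. Elongation factor Eef2 was at 3423 and 4202 CPM untreated and 5231 and 5560 CPM with CCCP, a log2 fold change of 0.50 (edgeR adjusted p = 0.316). Eef1a1 and Tpt1 overlapped, at 0.34 and 0.31, or 0.22 and 0.12 with the length trend removed. The median of the list was 0.69 without untreated replicate 2, 0.19 without CCCP replicate 2 and 0.11 without untreated replicate 1. Gas5, whose other annotated start has the TOP-like run, stood at -0.02 beside them.

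The decay machinery that removes spliced hosts was represented by 15 NMD genes with a median of 0.13, or 0.04 with the length trend and 0.01 with the GC trend removed. Of these 6 were higher without overlap, 5 lower and 4 overlapped, and edgeR called none (1 higher and 2 lower at an unadjusted p under 0.05). The kinase Smg1, which phosphorylates Upf1, was at 288 and 238 CPM untreated and 137 and 164 CPM with CCCP, a log2 fold change of -0.81, or -0.44 with the length trend removed. It missed the threshold in edgeR (adjusted p = 0.166) and passed it in DESeq2 (adjusted p = 0.0014). Eif4a3, a core of the exon junction complex, had 0.35 (edgeR adjusted p = 0.362), or 0.20 with the length trend removed, and the release factor Etf1 overlapped at -0.06. The NMD median without CCCP replicate 1 was 0.06.

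**Figure D5:**
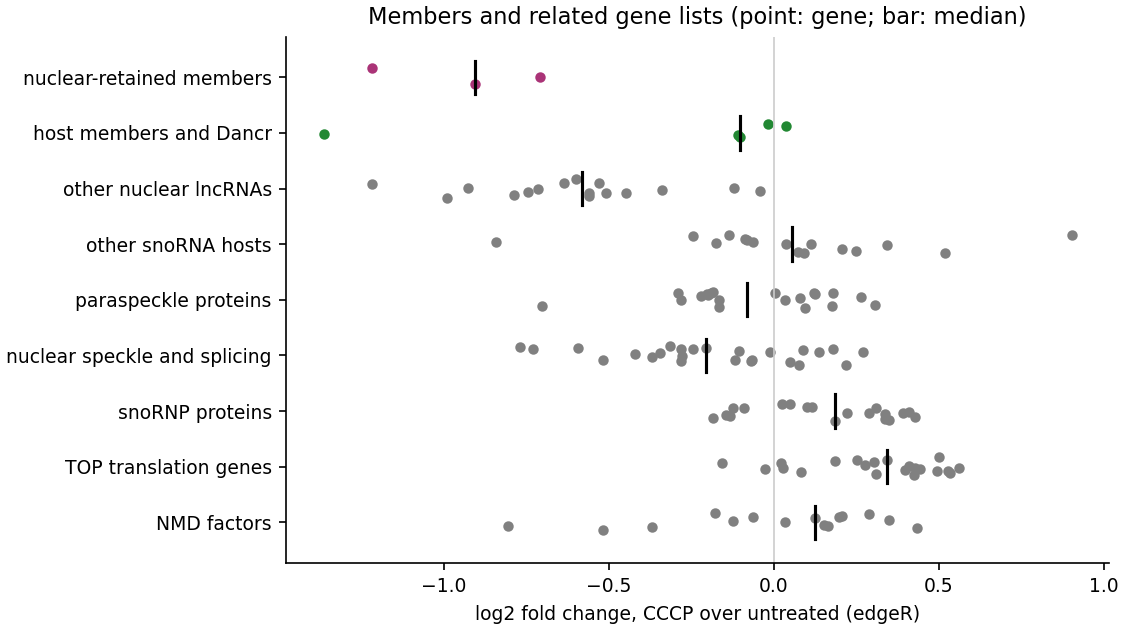
Log2 fold changes, CCCP over untreated, of the members and of every tested gene in the lists of related genes. Points are genes and bars the list medians. The list of other nuclear RNAs lies wholly below 0 with a median of -0.58, and the medians of the other lists of related genes lie between -0.20 and 0.34.

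Of the genes that start head to head with a member, 3 were tested. Zbtb37, which opens 263 bases from Gas5 on the other strand, was at 76.2 and 52.7 CPM untreated and 37.1 and 45.3 CPM with CCCP, a log2 fold change of -0.65 (edgeR adjusted p = 0.272), or -0.23 with the length trend removed. Slc3a2, the heavy chain of amino acid transporters, opens 118 bases from Snhg1 and was at 174 and 237 CPM against 271 and 272 CPM, a log2 fold change of 0.40 (edgeR adjusted p = 0.347). Znfx1, 81 bases from Zfas1, was at 44.1 and 38.7 CPM against 38.3 and 33.8 CPM, with -0.20 (edgeR adjusted p = 0.523). With the length trend removed Slc3a2 was at 0.51 and Znfx1 at -0.02. None of the 3 neighbours passed the test, and the difference between a neighbour and its member was not tested. Because strand was not used in counting, reads of Zbtb37 and Gas5, or of Znfx1 and Zfas1, cannot be told apart where their spans overlap. Snhg1 and Slc3a2 do not overlap, and the stretch between their starts is shown, from RefSeq on GRCm38.p6, plus strand, because both genes open from it.
chr19:8723370-8723486: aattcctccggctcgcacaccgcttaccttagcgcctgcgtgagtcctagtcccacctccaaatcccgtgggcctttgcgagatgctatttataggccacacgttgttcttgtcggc

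Profiles most like those of Malat1 and of Gas5 were sought among 10785 genes with a mean of at least 10 CPM. Likeness was measured by the root mean square (RMS) difference of centred log2 CPM over the 4 libraries. Nearest to Malat1 were Nrxn3 (RMS 0.111), Cacna2d2 (RMS 0.132) and Nfia (RMS 0.150), which share its gap between replicates 1 and 2 in both groups. Nrxn3, a synaptic adhesion protein, was at 38.9 and 19.7 CPM untreated and 27.2 and 11.7 CPM with CCCP. The collagen gene Col1a2, a mesenchymal marker, was also higher in replicate 1 of each group, at 1493 and 670 CPM untreated and 1261 and 780 CPM with CCCP, and the part of such a shift in the Malat1 values was not tested. Nearest to Gas5 were Acp6 (RMS 0.00182), Emc2 (RMS 0.0101) and Taf7 (RMS 0.0136), all with log2 fold changes between -0.02 and -0.01. With 4 libraries such likeness is a description only.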

How the data were processed

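Poly(A) RNA of 2 untreated and 2 CCCP-treated explant cultures was sequenced from a directional library. The deposited values are raw read counts for each gene. Per the file headers, the authors ran featureCounts 2.0.3 over exons of the mm10 RefSeq annotation with no strand, read-pair or overlap option, so that mates were counted singly and reads shared between genes were dropped. The submitters' processing notes also name HISAT2, SAMtools, FastQC and Subread. Groups came from titles. For untreated replicate 1 the header and the title differ by a letter, and the file record was used.

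Counts were scaled by TMM and tested with edgeR 4.0.16 in R 4.3.3 (quasi-likelihood F-test, two-sided, filterByExpr with minimum count 10, Benjamini-Hochberg threshold 0.05) over all 19837 genes passing the filter. DESeq2 1.42.0, other scalings, no filter, a replicate block, lowess removal of a length or GC trend (span 0.3) and left-out libraries were alternatives. For summed intronic snoRNA reads, the left-out libraries and the scaling by library totals alone were added after the data were seen. Scripts were tested on simulated data. CPM are on the TMM scale. The log2 CPM values behind the class balance and the differences between same-numbered libraries carry a prior count of 2. Log2 fold changes of genes are those of the edgeR fit, and those of summed snoRNA reads are log2 ratios of mean CPM.

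Members and lists were chosen with earlier results of these data known. Named are all members, the 3 most abundant genes of each list of proteins, noncoding list genes of mean CPM at least 10, genes starting head to head within 1 kb, and the 3 nearest profiles of Malat1 and Gas5. Genes named only as DESeq2 calls, Snhg14, Cpsf6, Clk1, Clk4, Pnn and Luc7l3, were picked after their values were seen, as were Snhg9, Col1a2 and the individual snoRNA genes. Some results, among them 1 gene that the rule names, are not reported here.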

Additional observations from a re-analysis of the deposited data

How the results depend on the processing

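No gene passed the threshold in edgeR with TMM, upper-quartile or RLE scaling or library totals alone, or after removal of a length or a GC trend. Without the filter on low counts 1107 genes were called (217 higher, 890 lower), with DESeq2 594 (59 higher, 535 lower), and with a library left out 10 to 46. A fit with the replicate number as a block called 2118 genes (754 higher, 1364 lower), 1242 with the length trend also removed and 657 with the GC trend also removed. The labels do not say what the number marks, and deviations of same-numbered libraries correlated at 0.36. Between same-numbered libraries Malat1 differed by -0.70 and -0.72 (log2, CCCP minus untreated), Neat1 by -1.46 and -0.68, Miat by -0.99 and -0.80 and Snhg11 by -1.31 and -1.47, while Gas5, Snhg1 and Zfas1 had opposite signs in the pairs and Dancr was at -0.25 and -0.01. The cause of these differences was not tested. The difference in balance between nuclear RNAs and hosts cannot move with the scaling, which acts on all genes alike. It was -0.17 with the length trend removed, -0.67 with the GC trend removed, -0.84 to -0.48 with a member left out and -1.17 to 0.02 with a library left out. Of 112 alternative values of members, 97 kept their sign and 104 moved by less than 1 SD. Of 196 alternative list medians, 179 kept their sign and 164 moved by less than 1 SD, with 32 beyond it. With 2 libraries per group the SD is wide. Malat1 stayed within it when its log2 fold change went from -0.71 to 0.07 without untreated replicate 1. Most of the alternatives refit the same libraries, so these shares do not measure how stable the values are. With 2 libraries per group an exact test by reassignment of group labels cannot pass the threshold for a single gene. Every member had at least 185 counts in each library.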
